A study of Canis lupus familiaris with 27 samples.

Results

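Large and smaller simple mammary carcinomas of female dogs were compared among tumors that had not reached the lymph nodes. Of 27 primary tumors in the series, the 14 labelled free of lymph node metastasis were taken, and split by labelled diameter into 5 large tumors of 7 cm or more and 9 smaller tumors of 4 cm or less; no lymph node free tumor lay between these sizes. Each tumor came from 1 dog and was hybridised to 1 Affymetrix Canine Genome 2.0 array. The large tumors measured 7 cm in a Great Dane aged 10, 7 cm in a German-Shepherd-Mix aged 13, 7 cm in a German Shepherd-Mix aged 15, 9 cm in a German-Shepherd-Mix aged 11 and 15 cm in a German Short Hair aged 12, and their values are given in this order throughout, followed by the lowest, median and highest of the smaller tumors. The smaller tumors measured 2 to 4 cm in dogs aged 9 to 13 of 9 different breeds or mixes. All 14 tumors were labelled in the deposited records as estrogen receptor negative and HER-2 positive, and were macrodissected to sections rich in carcinoma cells before RNA was extracted. The groups were defined by size alone, so other labels differ between them: grade III was given for 4 of 5 large and 5 of 9 smaller tumors, a German-Shepherd-Mix (either spelling) was the host of 3 large and 1 smaller tumor, and the sample name ended in 08 for 3 large and 1 smaller tumor and in 07 for 2 and 8. What the ending marks is not stated in the labels. The study's table of cases differs from the labels in giving the Labrador tumor as HER-2 negative and the Great Dane tumor as grade III, and the labels were followed here. The dogs with large tumors were 12.2 ± 1.92 years old (SD, n = 5) and those with smaller tumors 10.9 ± 1.36 years (SD, n = 9), a difference of 1.31 years (exact permutation test, two-sided, p = 0.185). The tumor of the dog aged 15 was described by the submitters as followed by lung metastases in the months after surgery. Its deposited survival label is longer than the survival in the study's table of cases.

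The mammary gland is lined by an inner layer of luminal cells, which make milk proteins under hormonal control and are joined by tight and adherens junctions, and an outer layer of contractile myoepithelial cells. Carcinomas grow within a stroma of fibroblasts, vessels and immune cells, and mammary tumors of dogs are known for also forming cartilage and bone matrix. Tumor diameter is one of the criteria by which mammary cancer is staged, beside lymph node status.

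Measures of array and RNA quality overlapped between the groups. The upper quartile of all probe sets lay at 7.52 to 7.86 in large and 7.54 to 7.92 in smaller tumors on the log2 scale (difference -0.09, exact permutation test, two-sided, p = 0.307). The difference between 3′ and 5′ probe sets for GAPDH, a sign of RNA integrity, was 0.06 higher in large tumors (exact permutation test, two-sided, p = 0.83), with the highest value, 2.29, in the tumor of the dog aged 15. Over all probe sets the 91 pairs of arrays correlated with r between 0.913 and 0.993. The closest pair was the 7 cm tumor of the dog aged 13 and a 3 cm tumor labelled Dalmatianr (r = 0.993), which was also the closest of all 351 pairs in the series; still, 539 genes differed by 1 or more on the log2 scale between them, and the next closest pair by this count differed at 846. A second tumor stood apart in the other direction. The tumor of the dog aged 15 had 119 genes more than 2 log2 units above and 90 genes more than 2 below every other lymph node free tumor.

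**Figure D1:**
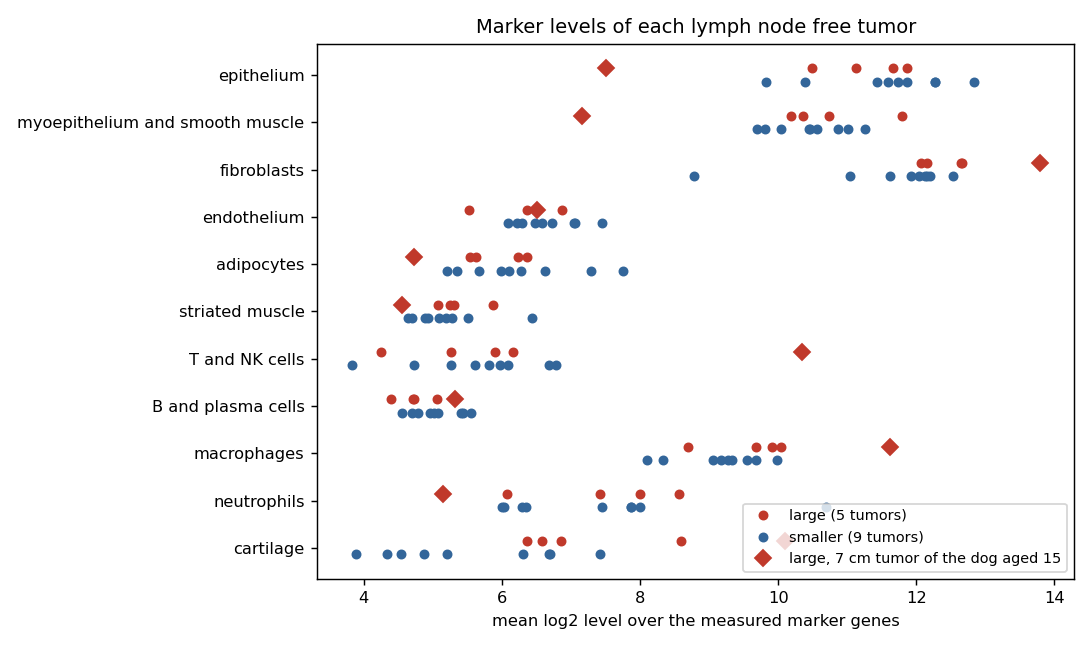
Mean log2 level of the measured marker genes of 11 cell types in each of the 5 large (red) and 9 smaller (blue) lymph node free tumors. The tumor of the dog aged 15 (diamond) lay lowest for epithelium at 7.51 and highest for T and NK cells at 10.3, fibroblasts at 13.8, macrophages at 11.6 and cartilage at 10.1.

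Epithelial markers were present in all 14 specimens, at unequal levels. EPCAM, a surface adhesion molecule of epithelial cells, was read at 11.6 to 14.4 in every tumor. The mean of 4 epithelial markers was 9.83 to 12.8 in smaller tumors and 10.5 to 11.9 in 4 large ones, against 7.51 in the tumor of the dog aged 15. In that tumor the luminal keratin gene KRT18 read 5.69, where the other large tumors read 12.57, 12.72, 12.67 and 10.22. Its bone sialoprotein gene IBSP read 12.51 against at most 5.66 elsewhere among the large, and GZMA, a granule protease of cytotoxic lymphocytes, read 10.63 against at most 2.58. At the other end, the 4 cm tumor of the Soft coat. wheaten Terrier had the lowest fibroblast markers, 8.79 on average, where the next smaller tumor had 11.0. In bulk tissue, fewer cells of a type and less RNA per cell cannot be told apart. Where a difference of a gene printed below moved by over 1.5 times without the tumor of the dog aged 15, that value is given too.

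No gene separated large from smaller tumors after adjustment for multiple testing. Among 15115 genes, limma called 0 higher and 0 lower at an adjusted p under 0.05 (0%). At an unadjusted p under 0.05, 456 genes were higher (3.02%) and 328 lower (2.17%) in large tumors, in all 784 genes or 5.19% of those tested, and the ordinary linear model without moderated variance gave 1072. That share is near the threshold itself, so the genes below are described by their levels, and none of them passed the adjusted test. The smallest adjusted p was 0.0806 and the next was 0.732, both by limma. The median standard error of a difference was 0.21 and the median 95% interval, not adjusted for the number of genes, reached 0.46 to either side. For a typical gene the adjusted test needs a larger difference than that. Its counts of 0 therefore do not show that differences were absent with this number of arrays. Differences of 1 or more, equal to a doubling, were estimated for 214 genes higher and 326 genes lower, of which 159 had an unadjusted p under 0.05. Single tumors weighed on these counts. The 784 genes became 472 without the tumor of the dog aged 15, 1238 without the 9 cm tumor and 1475 without the 3 cm German-Shepherd-Mix tumor among the smaller ones.

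**Figure D2:**
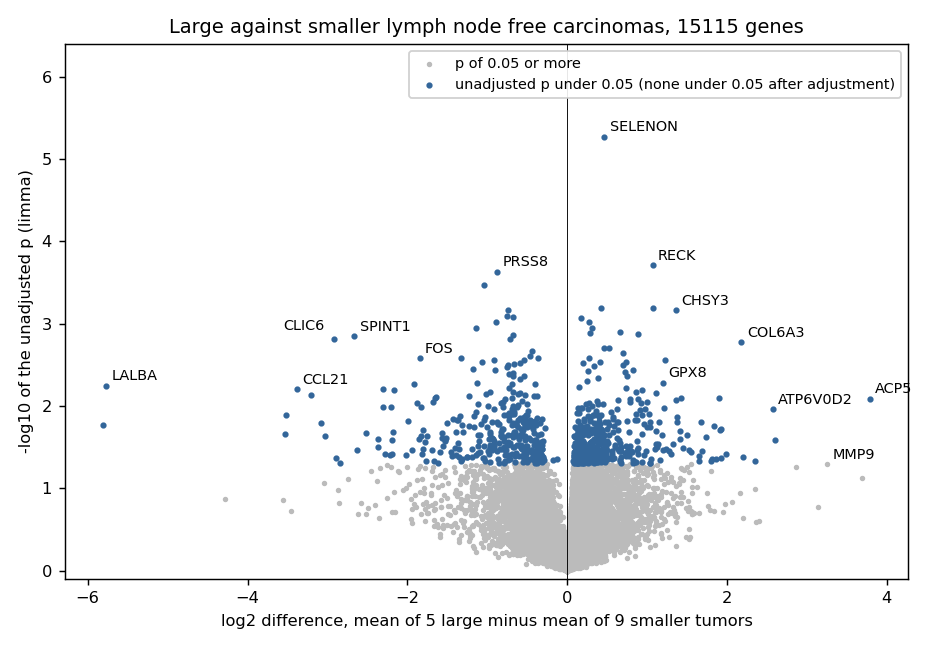
Log2 difference between the means of 5 large and 9 smaller tumors (horizontal) against -log10 of limma's unadjusted p (vertical) for 15115 genes, with blue points under an unadjusted p of 0.05. SELENON has the smallest p at a difference of 0.46, while LALBA at -5.77 and ACP5 at 3.79 mark the ends of the named genes.

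The leading gene, SELENON, encodes a selenoprotein of the endoplasmic reticulum. It read 3.72, 3.79, 3.48, 3.49 and 3.48 in the large tumors and 3.06 (lowest), 3.11 (median) and 3.29 (highest) in the smaller ones. The groups did not overlap, but the difference of 0.46 ± 0.06 (SE) lay among dim values, near the median of all probe sets on these arrays (3.60 to 3.82). RECK, a membrane-anchored inhibitor of matrix metalloproteases, followed at 6.98, 6.23, 6.79, 6.70 and 6.96 against 5.22, 5.55 and 6.30 in smaller tumors. Its difference of 1.07 ± 0.21 (SE, 95% interval 0.62 to 1.52) held at 1.05 without the tumor of the dog aged 15 and at 1.12 among names ending in 07. Only the 7 cm tumor of the dog aged 13 fell within the range of the smaller tumors.

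P4HA2, a prolyl hydroxylase needed for stable collagen, read 9.87, 10.06, 11.30, 10.26 and 10.60 against 8.77, 9.39 and 9.96, a difference of 1.07 ± 0.24 (SE). All but the Great Dane tumor lay above every smaller tumor. CHSY3, which builds chondroitin sulfate chains on proteoglycans, read 5.11, 5.27, 6.73, 4.12 and 5.04 against 3.57, 3.92 and 4.32, so that only the 9 cm tumor overlapped the smaller ones. GPX8, a peroxidase of the endoplasmic reticulum, was named after its values were seen: it read 11.05, 11.19, 12.23, 10.72 and 10.96, all above the smaller tumors at 8.44, 10.35 and 10.68. ADGRG6, an adhesion G protein-coupled receptor, read 4.38, 4.92, 4.63, 5.66 and 5.02 against 4.01, 4.29 and 4.47. The others among the 10 leading named genes of higher estimate included the mismatch repair gene PMS1 at a difference of 0.43 and PM20D2 at 0.89. The rest were the dim genes DNAJC6, LSMEM2 and RHCE at 0.18, 0.31 and 0.29.

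Among the genes of lower estimate, PRSS8 (prostasin), a membrane serine protease of epithelial cells, read 7.47, 7.47, 7.75, 7.71 and 7.87 in large tumors against 7.81, 8.70 and 8.89 in smaller ones, a difference of -0.87 ± 0.17 (SE). Only the 15 cm tumor reached the range of the smaller ones. SPINT1 (HAI-1), an inhibitor of such proteases, read 3.92, 6.35, 3.01, 7.18 and 5.12 against 6.51, 7.76 and 9.26, a difference of -2.66 ± 0.66 (SE), and only the 9 cm tumor overlapped. Its relative SPINT2, named after its values were seen, had a difference of -0.90 ± 0.26 (SE), with 12.16, 12.71, 11.23, 12.98 and 12.93 against 12.87, 13.40 and 13.70. Without the tumor of the dog aged 15 the differences of PRSS8, SPINT1 and SPINT2 were -0.90, -2.14 and -0.61.

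CLIC6, a chloride channel family member of secretory epithelia, read 6.55, 8.89, 5.46, 8.80 and 7.56 against 8.20, 10.53 and 12.10. Of the large tumors, 3 lay below every smaller one. MARK2, a kinase of epithelial polarity, read 11.11, 11.26, 10.20, 11.22 and 10.69 against 11.38, 11.75 and 12.43, and the transcriptional corepressor BCOR read 6.36, 6.86, 6.69, 6.58 and 6.66 against 6.95, 7.23 and 7.92. Neither overlapped between the groups. Further genes of this set were SYS1, a Golgi trafficking protein, at -1.04, LRRC45 at -1.14, SPIRE1, an actin nucleator, at -0.74, DEDD2 at -0.75 and PCMTD2 at -0.68. The other probe sets of LRRC45, less bright, had differences of -0.17 and -0.04, and the 9 cm tumor at 5.28 lay within the smaller tumors.

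A set of 10 genes was higher in every large than in every smaller tumor (0.0662%) and 5 were lower (0.0331%). The 14 tumors can be split into 5 and 9 in 2002 ways. Full separation of some genes among 15115 is therefore expected by chance, and the counts are no result about these genes. Besides SELENON, DNAJC6, GPX8, SPARC and ATP6V0D2, the higher genes were EVC, EYA1, IKZF3, ROPN1 and ZNF45, all with levels of at most 3.24 and differences of at most 0.18. The lower genes were BCOR, MARK2, REV3L at -0.72, RALGAPA2 at -0.99 and ZNF184 at -0.96. REV3L, the catalytic subunit of a translesion DNA polymerase, read 10.53, 10.62, 10.64, 10.39 and 9.47 against 10.79, 11.01 and 11.30. Except for BCOR, MARK2, SELENON, DNAJC6 and SPARC, these genes were named after their values were seen.

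Milk protein and luminal genes had the lowest medians of 35 gene lists. Of 13 measured milk protein and secretion genes, 12 had a lower mean in large tumors, with a median difference of -1.40 against 0.03 over all genes, and 2 had an unadjusted p under 0.05 (limma). Of 24 luminal and hormone receptor genes 20 had a lower mean (median -1.08), with 2 lower and 1 higher at that threshold. Without the tumor of the dog aged 15, in which epithelial markers were low, these medians were -0.90 and -0.45; the part of epithelial content in them was not tested. With the name ending as a block they were -0.56 and -0.63. Among names ending in 07 they were -1.42 and -0.74. Over all genes 57.6% had a higher mean in large tumors, and counts at the unadjusted threshold in these and the following lists stand against 3.02% of all genes higher and 2.17% lower.

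LALBA, the alpha-lactalbumin subunit of lactose synthase, had the lowest estimate of the named genes. It read 2.66, 10.68, 2.65, 2.66 and 2.99 in large tumors against 5.89, 10.68 and 14.51 in smaller ones. Of the large tumors, 4 sat near the lower end of the scale, below all 9 smaller tumors, and the exception was the 7 cm tumor of the dog aged 13. Its array was most alike to that of the tumor labelled Dalmatianr, but so was the array of the 9 cm tumor, with LALBA at 2.66. The difference of -5.77 ± 1.74 (SE) was -5.35 without the tumor of the dog aged 15 and -7.79 among names ending in 07. LALBA spanned 2.42 to 12.69 in the 13 metastatic tumors of the series, with a median of 2.64.

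BTN1A1, a protein of the milk fat globule, was, like LALBA, highest in the tumor of the dog aged 13 among the large tumors, with 1.69, 5.34, 2.46, 2.26 and 2.43 against 2.45, 6.10 and 9.58. CSN2, beta-casein, read 2.75, 13.45, 2.91, 14.40 and 5.30 in large tumors, so that the 9 cm tumor was as high as the smaller ones (2.77, 11.58 and 15.45). LTF, lactoferrin, read 14.41, 14.74, 2.63, 14.37 and 10.94 against 12.29, 14.87 and 15.09, so that the tumor of the dog aged 15 and the 15 cm tumor lay below every smaller tumor. Both were chosen after their values were seen.

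Among luminal genes, ERBB3, a receptor of the HER family, had a difference of -2.19 ± 0.87 (SE), which was -1.30 without the tumor of the dog aged 15. MUC1, a mucin of the luminal surface, had -1.82 ± 0.79 (SE). PGR, the progesterone receptor, split the large tumors, with 3.31, 9.30, 5.59, 8.91 and 3.45 against 3.37, 9.92 and 10.53. Of the 4 luminal genes with a higher mean, 1 passed the unadjusted threshold. This was TNFSF11 (RANKL), a hormone-induced signal of luminal cells that also drives osteoclast formation: it read 3.13, 3.79, 6.42, 8.78 and 2.68 against 2.66, 2.94 and 3.72. Of the large tumors, 3 lay above all smaller ones, and the 9 cm tumor was highest.

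Junction genes showed a similar order. Of 35 measured cell junction and adhesion genes 26 had a lower mean in large tumors (median -0.61), and 6 were lower and 2 higher at an unadjusted p under 0.05, where 2.17% and 3.02% of all genes were. EPCAM read 12.68, 13.40, 11.56, 13.64 and 12.65 against 12.98, 13.66 and 14.37, a difference of -0.91 ± 0.31 (SE). CTNND1, the catenin p120, had -1.08, the tight junction protein CGN -1.53, PKP3 of desmosomes -0.91, CLDN7, a claudin, -2.21, and F11R, a junctional adhesion molecule, -1.62. A second probe set of CTNND1, slightly less bright, had a difference of -0.27. Both genes higher at that threshold were CDH11, a cadherin of mesenchymal cells, at 1.33 and CTNNB1, beta-catenin, at 0.56. Without the tumor of the dog aged 15 the differences of EPCAM, CGN and F11R were -0.60, -0.99 and -0.75, that of CDH11, which read 15.18 there, was 0.76, and the list's median was -0.40. Among names ending in 07 CDH11 had 0.04 and the list's median was -0.35.

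Other epithelial regulators differed in how far they rested on single tumors. ESRP2 read 5.55, 7.41, 2.88, 8.34 and 3.34 against 5.08, 8.74 and 9.40, with a difference of -2.52. A second probe set of ESRP2, less bright, had a difference of -1.13. ESRP1 had a difference of -1.46 ± 0.62 (SE), but this was -0.68 without the tumor of the dog aged 15 and -0.09 among names ending in 07, and the 15 cm tumor at 9.26 lay within the smaller tumors. ELF3, named after its values were seen, read 5.30, 7.30, 2.71, 7.30 and 4.09 against 6.12, 7.84 and 8.62. For ESRP2 and ELF3 the 9 cm tumor and the tumor of the dog aged 13 lay within the range of the smaller tumors. The tumor of the dog aged 15 and the 15 cm tumor lay below it, joined by the Great Dane tumor for ELF3. Over 18 genes of the epithelial-mesenchymal transition list the median was 0.11, and 0.04 without the tumor of the dog aged 15. WFDC2 (HE4), MAL and CHL1, also chosen after their values were seen, had differences of -3.21, -3.53 and -3.52, and the tumor of the dog aged 15 read lowest of the large tumors in all 3. Basal and myoepithelial genes had a median of -0.11 over 22 genes, which turned to 0.13 without the tumor of the dog aged 15, with 0 past the unadjusted threshold by limma.

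**Figure D3:**
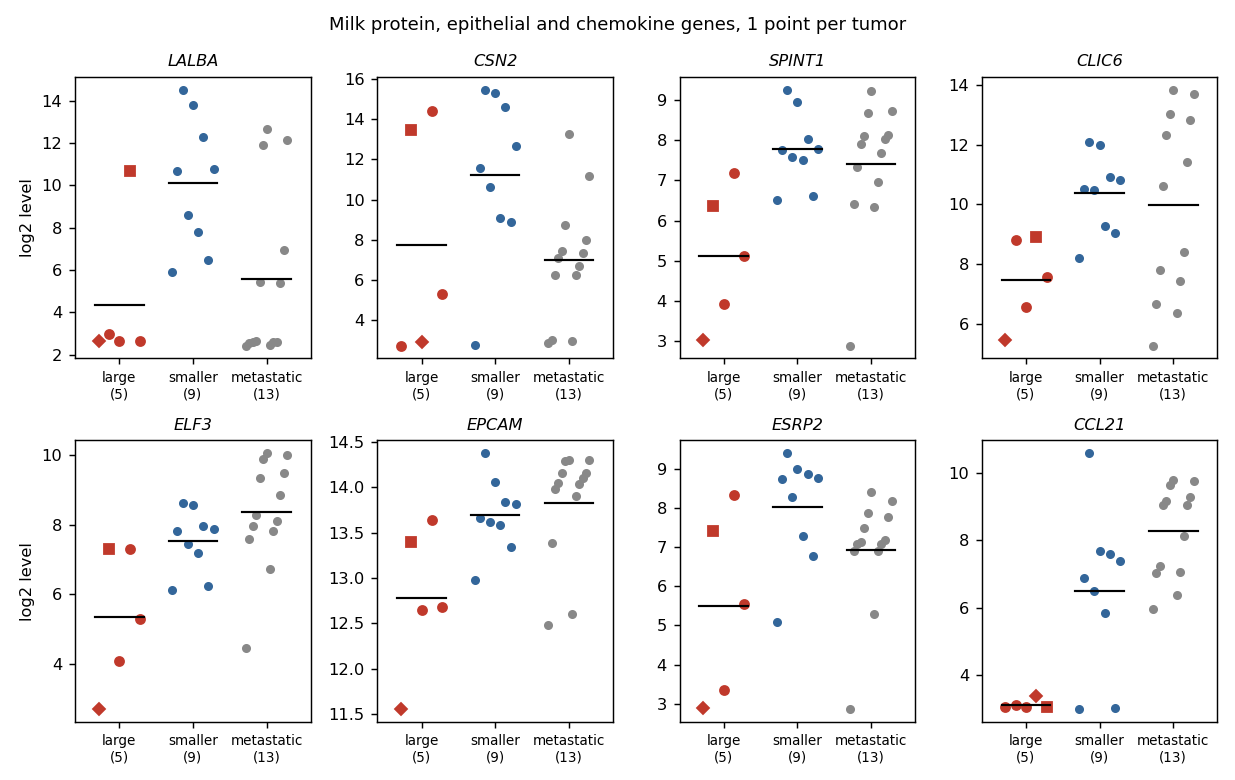
Log2 levels of 8 genes in 5 large, 9 smaller and 13 metastatic tumors, 1 point per tumor, with a line at the group mean. The diamond is the tumor of the dog aged 15 and the square that of the dog aged 13, the only large tumor with LALBA above 2.99.

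Matrix genes had the highest median of the lists. Of 29 measured fibroblast and matrix genes, 26 had a higher mean in large tumors (median 0.74), and 4 were higher at an unadjusted p under 0.05 (limma). The median was 0.64 without the tumor of the dog aged 15, 0.48 without the wheaten Terrier tumor, 1.29 without the 15 cm tumor, 0.37 among names ending in 07 and 0.35 with the name ending as a block.

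COL6A3, a chain of the microfibrillar collagen VI, read 8.27, 8.51, 8.85, 7.86 and 8.94 in large tumors against 4.58, 6.16 and 7.95 in smaller ones. Only the 9 cm tumor reached into the range of the smaller ones. The difference was 2.18 ± 0.55 (SE, 95% interval 0.98 to 3.37). It was 2.09 without the tumor of the dog aged 15, 2.29 among names ending in 07 and 2.22 among grade III tumors. With the name ending as a block it was 1.76. Metastatic tumors ranged from 6.29 to 11.92. Other probe sets of COL6A3, both dim, had differences of 0.05 and 0.15.

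SPARC, a collagen-binding matricellular protein, read 14.46, 14.57, 15.01, 14.58 and 14.55 against 13.20, 13.89 and 14.40, without overlap. POSTN, periostin, read 10.29, 10.66, 10.00, 11.29 and 11.94 against 5.72, 9.37 and 10.51, a difference of 1.83 ± 0.67 (SE). The fibrillar collagen genes COL3A1 and COL1A1 had differences of 1.29 ± 0.56 and 1.42 ± 0.68 (SE). For COL1A1 the tumor of the dog aged 15 (16.43) and that of the dog aged 13 (14.49) exceeded the highest smaller tumor at 14.15, and without the former the difference was 0.93. Lower values of both collagens marked the wheaten Terrier tumor at 9.96 for COL1A1 and 10.46 for COL3A1.

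Genes of bone resorption and cartilage varied widely among the large tumors. ACP5, the tartrate-resistant acid phosphatase of osteoclasts and some macrophages, read 8.02, 9.24, 12.93, 11.52 and 5.10 against 2.70, 6.17 and 7.80 in smaller tumors. All but the 15 cm tumor lay above every smaller tumor, for a difference of 3.79 ± 1.22 (SE), or 2.90 without the tumor of the dog aged 15. ATP6V0D2, a proton pump subunit of osteoclasts, read 4.00, 4.75, 10.28, 7.62 and 3.83 against 3.05, 3.61 and 3.81, and the gap was small outside the dog aged 15 and the 9 cm tumor. Its difference of 2.57 ± 0.87 (SE) was 1.52 without the former. MMP9, gelatinase B, followed the same pair, with 8.50, 9.43, 13.30, 11.89 and 3.98 against 2.45, 6.56 and 8.81. CTSK, the collagen-degrading protease of osteoclasts, read 14.62 and 13.48 in the same pair and 12.51, 13.08 and 11.45 in the others, where the smaller tumors reached 13.30. The same pair also had the highest TNFSF11 of the large tumors. These 4 genes were chosen after their values were seen, so their shared order with TNFSF11 is no separate result, and a link was not tested. ACP5 spanned 5.62 to 9.45 and ATP6V0D2 3.08 to 5.98 in the metastatic tumors. The metastatic tumor of highest TNFSF11, at 8.99, read 5.62 for ACP5 and 3.08 for ATP6V0D2. Those next in TNFSF11, at 7.47, 6.90 and 6.14, read 7.18, 8.56 and 7.02 for ACP5 and 3.14, 5.98 and 3.53 for ATP6V0D2.

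Of 23 cartilage and bone matrix genes 16 had a higher mean in large tumors, with a median of 0.30 (0.19 to 0.58 when each tumor was left out, -0.03 among names ending in 07, 0.15 with the name ending as a block) and 1 gene past the unadjusted threshold. That gene was ACAN, the core protein of cartilage aggrecan, which read 10.82, 9.19, 10.47, 5.80 and 8.92 against 2.40, 6.68 and 8.49. All but the 9 cm tumor lay above the smaller ones, and the difference of 2.60 ± 1.03 (SE) was 2.24 without the tumor of the dog aged 15 and 1.14 among names ending in 07. COL2A1, the main cartilage collagen, read 9.79, 8.77, 12.76, 7.93 and 6.25 against 2.26, 6.06 and 9.21. CNMD, chondromodulin, read 10.96, 10.72, 11.72, 10.79 and 5.78 against 2.29, 6.04 and 13.88, so that a smaller tumor held the highest value. IBSP was high in 1 tumor: without the dog aged 15 its difference of 2.35 was 0.58, and among names ending in 07 it was -0.15.

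**Figure D4:**
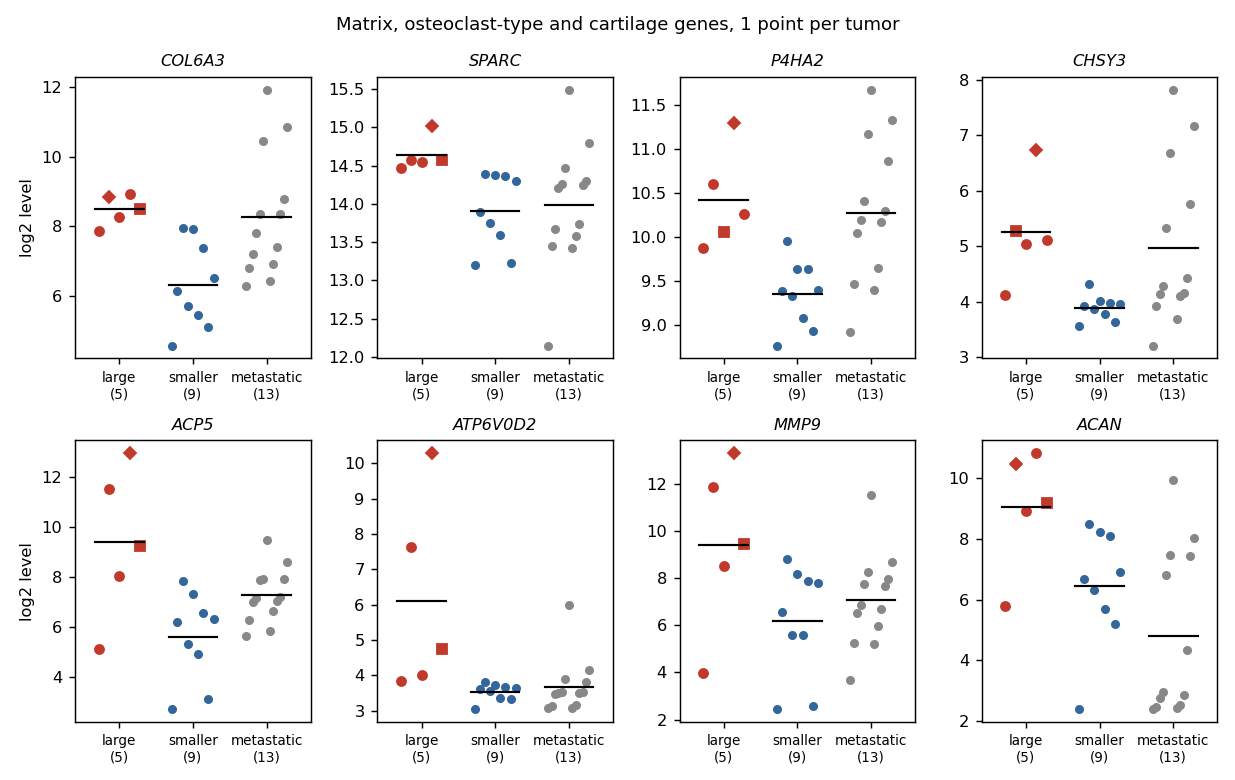
Log2 levels of 8 matrix, osteoclast-type and cartilage genes in 5 large, 9 smaller and 13 metastatic tumors, 1 point per tumor, with a line at the group mean. SPARC and ATP6V0D2 do not overlap between large and smaller tumors, and the tumor of the dog aged 15 (diamond) holds the highest large-tumor value of ACP5 at 12.93.

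Immune genes were divided by single tumors. Of 28 macrophage genes 24 had a higher mean in large tumors (median 0.50), and 2 passed an unadjusted p under 0.05: CD68, a lysosomal protein, with 7.96, 8.49, 11.12, 8.68 and 7.17 against 6.42, 7.56 and 8.09, and CSF1R, the receptor for macrophage growth factor, with 10.00, 8.60, 9.80, 8.77 and 7.75 against 6.43, 8.28 and 8.86. The median was 0.22 without the tumor of the dog aged 15, where CD68 was highest, and 0.81 without the 15 cm tumor, and it was -0.04 among names ending in 07. Without the tumor of the dog aged 15 the difference of CD68 was 0.63 in place of 1.24. Of 28 T and NK cell genes 26 had a higher mean (median 0.46), but the median was -0.04 without the tumor of the dog aged 15 and 0.92 without the Great Dane tumor, it was 0.05 among names ending in 07, and 0 passed the unadjusted threshold (limma).

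CCL21, a chemokine of lymphatic vessels and lymphoid stroma, was near the lower end of the scale in every large tumor. It read 3.10, 3.06, 3.39, 3.04 and 3.04 in large tumors, against 2.99, 6.89 and 10.58 in smaller ones, of which the 2 lowest, the tumor labelled Dalmatianr at 3.02 and the wheaten Terrier tumor at 2.99, lay with the large tumors. In all 13 metastatic tumors CCL21 read 5.95 or more, up to 9.80. The difference of -3.38 ± 1.04 (SE) was chosen after its value was seen, and kept within -3.82 to -2.87 when each tumor was left out in turn.

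Of 30 interferon response genes 24 had a lower mean in large tumors (median -0.40, and -0.60 to -0.22 when each tumor was left out). Of these, 1 passed the unadjusted threshold: IRF7, a transcription factor of the type I interferon response, with 3.25, 3.88, 3.63, 4.25 and 3.66 against 3.56, 4.88 and 6.31. With the name ending as a block the median was -0.03. Among endothelial genes ANGPT1, a ligand that stabilises vessels, read 3.23, 4.20, 5.79, 3.44 and 4.05 against 2.74, 3.17 and 3.52, a difference of 1.00 that was 0.59 without the tumor of the dog aged 15, and CDH5, the endothelial cadherin, had a difference of 0.29 at dim levels. Over 28 endothelial genes the median was 0.08, and 0.03 without that tumor. Of 5 endothelial markers, CDH5 was the only 1 with a higher mean in large tumors. The other 4, PECAM1, VWF, KDR and CLDN5, had a lower mean, and the median of the 5 was -0.37.

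Genes of cell division leaned higher without single genes standing out. Of 29 mitosis and spindle genes 23 had a higher mean in large tumors (median 0.60), but 0 passed an unadjusted p under 0.05 in limma. The median was 0.32 without the tumor of the dog aged 15 and 0.15 with the name ending as a block. NUSAP1, a spindle protein, read 9.06, 9.21, 9.65, 9.79 and 9.40 against 6.74, 8.57 and 10.06, and 8.19 to 11.34 in metastatic tumors. DNA replication genes had a median of 0.23 over 39 genes (0.15 without the tumor of the dog aged 15), with 1 higher and 1 lower at that threshold. Of 41 hypoxia and glycolysis genes 28 had a higher mean (median 0.15, and 0.04 to 0.38 when each tumor was left out), and P4HA2 was the only one past the threshold.

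Immediate early genes, which respond within minutes to growth factors and include many transcription factors, were among the lowest lists. Of 20 genes 16 had a lower mean in large tumors (median -0.67, and -0.88 to -0.49 when each tumor was left out), with 3 past the unadjusted threshold. FOS read 11.67, 12.49, 12.13, 12.55 and 9.88 against 12.48, 13.26 and 15.19, a difference of -1.85 ± 0.50 (SE), lowest in the 15 cm tumor. KLF6 had -0.99 and ATF3 -1.66. The stress response list also held ATF3, with STC2, a secreted glycoprotein, at -1.88 and SHMT2 of serine metabolism at 0.44, around a median of -0.08 (-0.12 without the tumor of the dog aged 15).

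Cholesterol synthesis enzymes had lower estimates at the unadjusted threshold. PMVK had a difference of -0.73, FDFT1 (squalene synthase) of -0.80 and HSD17B7 of -0.96, which was -0.55 without the tumor of the dog aged 15 and -0.14 among names ending in 07, and 19 of 27 genes of cholesterol and fatty acid synthesis had a lower mean with a median of -0.11. A second probe set of PMVK, less bright, had a difference of 0.20. Proteasome subunits PSMC5 and ADRM1 had -0.40 and -0.63 around a median of -0.06 over 30 genes (-0.12 without the tumor of the dog aged 15). In the remaining lists, which include both ribosomes, oxidative phosphorylation, chaperones, apoptosis, growth factor, TGF-beta and Wnt signalling, fat, muscle, neutrophil, B cell, antigen presentation and squamous, red blood cell and matrix protease genes, at most 1 gene passed in either direction. Their medians lay between -0.21 and 0.22, apart from -0.51 for squamous genes, which turned to 0.05 without the 2 cm tumor and 0.02 without that of the dog aged 15. Without the latter tumor the medians of these other lists lay between -0.20 and 0.10.

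**Figure D5:**
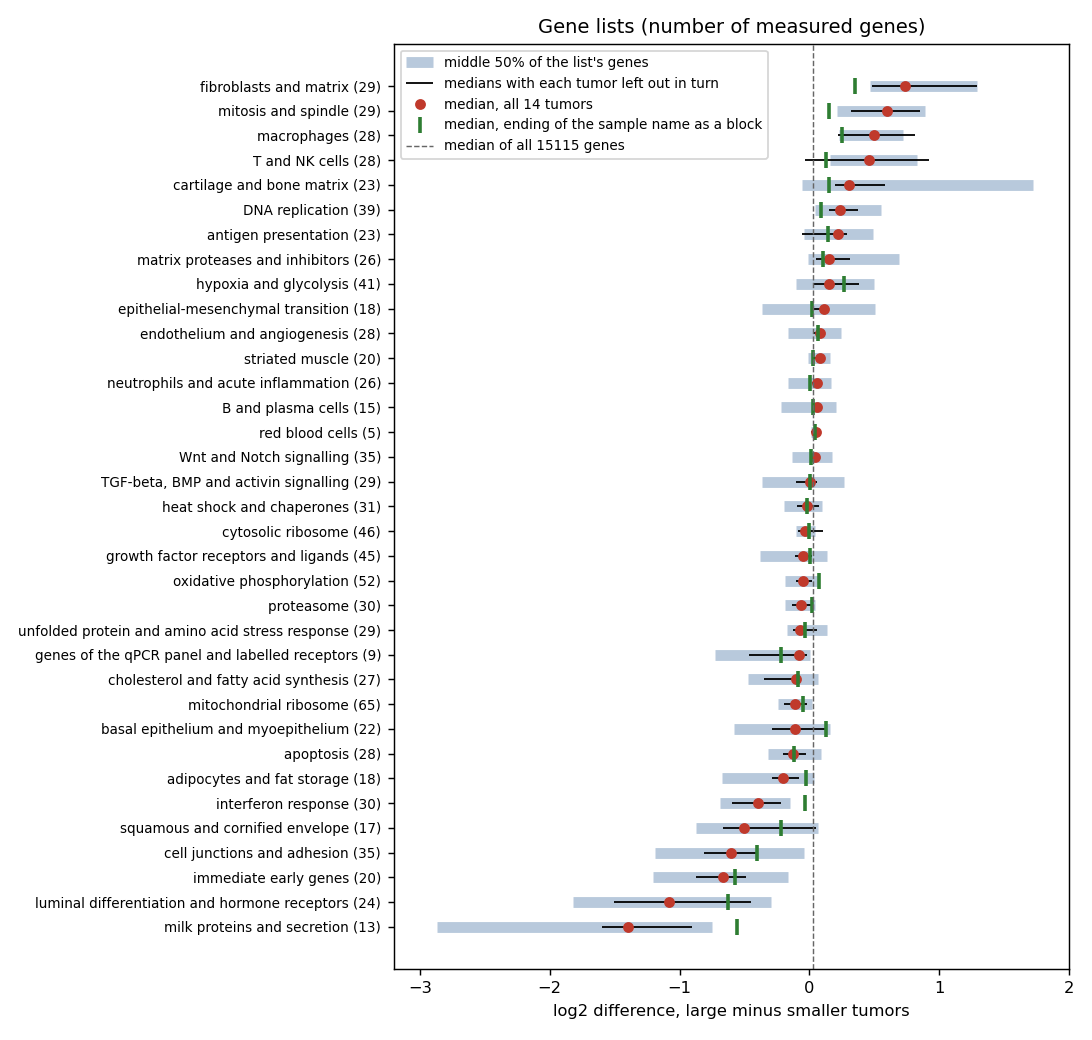
Median log2 difference between large and smaller tumors (red points) for 35 gene lists, with the middle 50% of genes (blue bars), the range of medians when each tumor is left out (black lines) and the median with the name ending as a block (green marks). Milk protein genes lie lowest at -1.40 and fibroblast and matrix genes highest at 0.74, against 0.03 for all genes (dashed).

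Of the genes that the study measured by quantitative PCR for lymph node metastasis, none that was measured here passed the unadjusted threshold between the sizes (limma). AURKA, a mitotic kinase, had -0.08 ± 0.68 (SE), ALOX12, a lipoxygenase, 0.01 ± 0.34, IGF2R -0.07 ± 0.29, TGFBR3 0.33 ± 0.73, BMP6 -0.65 ± 0.53 and the receptor ERBB4 0.17 ± 0.34. HEPACAM2, an adhesion protein of the immunoglobulin family, read 7.08, 9.83, 3.19, 9.19 and 5.66 against 2.92, 9.73 and 11.36, at -1.67 ± 1.50 (SE). Without the tumor of the dog aged 15 the difference of HEPACAM2 was -0.72, of TGFBR3 0.93, of AURKA -0.68, of ALOX12 -0.06 and of IGF2R 0.07. The signs of AURKA, ALOX12 and IGF2R turned under several alternatives. The labelled receptors were read at 2.23 to 2.34 in large and 2.24 to 4.48 in smaller tumors for ESR1, the estrogen receptor, and at 4.82 to 6.58 and 5.28 to 8.04 for ERBB2 (HER-2).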

How the data were processed

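The deposited table holds log2 values of 43035 probe sets, which the authors made with the gcRMA workflow of Partek (RMA background correction, quantile normalization, median polish). Here 175 control probe sets were left out, probe sets with 1 gene symbol in the platform annotation were kept (29254), and the brightest per gene over all 27 tumors was taken (15115 genes). Groups came from the labels of lymph node status and size. Differences were fitted with limma 3.58.1 in R 4.3.3 without covariates, two-sided, with Benjamini-Hochberg adjustment over all genes, and the fit was tested on simulated data. Each tumor is 1 array of 1 dog, so the spread is that between dogs, and their number limits precision. The genes named include the 10 of smallest p in each direction, passing over symbols that are LOC identifiers or start with a digit. Up to 4 members of each list with a marked shift, the genes of the study's quantitative PCR and cell type markers were also named. The rest are stated as chosen after seeing values, to which PGR, CLDN7, PKP3, F11R, CTNNB1, ESRP1, CNMD, IBSP and KRT7 also belong. The comparison, its lists and its markers were chosen with earlier results of these data known. Of 1125 listed genes 953 were measured. Reference sequence and coordinates were not used here. Alternatives covered normalization, filters, probe set choice, moderation, covariates and each tumor left out.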

Additional observations from a re-analysis of the deposited data

Results flagged for a closer look

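Of 194 groups of values examined, 26 held a tumor far from the others of its group. Chance alone flags about 1 in 20 groups, and genes chosen for their values, or for 1 tumor, raise that share. The tumor of the dog aged 15 stood apart from the other large tumors with IBSP at 12.51, GZMA at 10.63, SPARC at 15.01, CCL21 at 3.39 and ROPN1 at 2.12 as highest values, and F11R at 3.44 and PMS1 at 10.43 as lowest. The tumor of the dog aged 13 held LALBA at 10.68 and BTN1A1 at 5.34, while the other large tumors had at most 2.99 and 2.46. The 15 cm tumor was highest in DEDD2 at 6.56 and lowest in ESR1 at 2.23, CNMD at 5.78 and REV3L at 9.47, and the 9 cm tumor was highest in EYA1 at 3.24.

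Among smaller tumors, that of the wheaten Terrier stood apart with SELENON at 3.29 and IGF2R at 13.86 as highest and KRT7 at 8.47, COL1A1 at 9.96 and COL3A1 at 10.46 as lowest values. The 3 cm German-Shepherd-Mix tumor had LSMEM2 at 2.84 and GZMA at 3.61 as highest and PCMTD2 at 9.24 and MAL at 9.52 as lowest. Single values were IBSP at 5.54 in the Cocker Spaniel-Mix tumor, GPX8 at 8.44 in the Irish Setter tumor, lowest of its group, and RALGAPA2 at 9.53 in the Miniature Pinscher tumor.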

How the results depend on the processing

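At an adjusted p under 0.05 the counts of 0 held in both directions except with array weights, where 1 gene was higher (SELENON, limma adjusted p = 0.00491, against 0.0806 without weights), and among names ending in 08, where 29 were lower with a lone smaller tumor assumed to vary like the others. The 784 genes past an unadjusted p of 0.05 became 447 among brighter genes only, 318 among grade III tumors by the labels, 419 with the Great Dane tumor, whose grade differs between sources, also counted as grade III, 428 with the name ending as a block, 1287 among names ending in 08, 471 without the 7 cm tumor of the dog aged 15 and the Cocker Spaniel-Mix tumor, 2367 over all probe sets, and 472 to 1475 when each tumor was left out. Of the 428 genes under the block 236 were among the 784. The cause of these shifts was not tested. In the study's clustering the tumors of the dog aged 15 and the Cocker Spaniel-Mix, matched by age and size, grouped with the metastatic tumors. The Cocker Spaniel-Mix array correlated at r = 0.991 with that of a metastatic American Pittbull tumor. The GAPDH difference of 0.06 was -0.37 among names ending in 07 and -0.18 to 0.17 when each tumor was left out.

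Of 3371 differences of named genes under alternatives 56 turned sign. Among names ending in 08 these were LSMEM2 at -0.022, BTN1A1 at 0.71, POSTN at -0.20, STC2 at 0.42, ADRM1 at 0.081, ESRP2 at 0.20, KLF6 at 0.087, BMP6 at 0.23, ERBB2 at 0.29, KRT18 at 0.74, CSN2 at 3.60, CLDN7 at 1.46, NUSAP1 at -0.64, TGFBR3 at -0.66, ALOX12 at -0.49, ERBB4 at -0.88 and IGF2R at 0.54; among names ending in 07, IBSP at -0.15. Genes with estimates near 0 turned more often. AURKA was 0.0017 with quantile normalization over the 14 arrays, 0.38 with the most variable probe set, 0.082 with log2 size, 0.18 without the most alike pair and -0.68 to 0.26 when each tumor was left out. ALOX12 was -0.049 with arrays centred on their median, -0.35 with array weights, -0.13 with the upper quartile as a covariate, -0.23 without the dog aged 15 and the Cocker Spaniel-Mix, -0.084 without the pair least like any other and -0.23 to 0.14 when each tumor was left out. IGF2R was 0.085 with the most variable probe set, 0.15 with array weights, 0.045 with the block, 0.11 with German-Shepherd-Mix as a covariate, 0.034 with log2 size, 0.020 with the upper quartile, 0.079 and 0.25 without those pairs, and -0.19 to 0.11 when each tumor was left out. ERBB4 was -0.032 among grade III tumors, -0.047 with the Great Dane, -0.17 with the upper quartile and -0.027 to 0.31 when each tumor was left out, and TGFBR3 ranged there from -0.056 to 0.93. GZMA was -0.093 and -0.089 without the same pairs and -0.071 to 1.98 when each tumor was left out. Alternatives without the most alike pair and without the pair least like any other (the tumors of the dog aged 15 and the wheaten Terrier) were chosen after seeing the data. No paired analysis was possible because the replicate numbers were given in accession order and only name the tumors.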
